A study of Mus musculus with 6 samples.

Results

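The 10 genes described here belong to the antioxidant programme of the transcription factor Nrf2: Nrf2 itself (symbol Nfe2l2), its inhibitor Keap1, and the target genes Hmox1, Nqo1, Gclc, Gclm, Txnrd1, Srxn1, Slc7a11 and Gsr. They were chosen by gene symbol, and 10 of 10 were found among the 14526 genes of the deposited table. RNA was sequenced from NMuMG, a cell line of normal mouse mammary gland epithelium. Cells in both groups were given TGF-beta, which drives this line from an epithelial towards a mesenchymal state, together with small interfering RNA (siRNA) 16 hours after plating; both agents were renewed on day 2 and RNA was taken on day 4. In 3 libraries (siMnt) the siRNA was against Mnt, a DNA-binding repressor that uses the same partner, Max, as Myc does, and in the other 3 (siNTC) it was a non-targeting control. No sample without TGF-beta was analysed here, and 1 cell line was used.

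Nrf2 is a short-lived protein: Keap1 bridges it to the Cul3 ubiquitin ligase, and reactive electrophiles or oxidants disable Keap1, so that Nrf2 accumulates in the nucleus. There it pairs with small Maf proteins (Mafg, Maff, Mafk) at antioxidant response elements and turns on genes for glutathione synthesis, thioredoxin reduction, quinone reduction and heme breakdown. Much of this control acts on the protein, which RNA sequencing does not measure.

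Values are normalised read counts, that is, reads of a gene after scaling each library by 1 factor. The libraries held 22323050 to 42193292 reads. A log2 fold change is the siMnt mean minus the siNTC mean of log2(value + 1), given ± its standard error. Genes were tested with limma, and a gene passed at a p under 0.05 after Benjamini-Hochberg adjustment over the 12568 tested genes. Whether the replicates came from separate cultures is not in the labels; if they did not, p-values reflect technical spread only. Over all tested genes 3.93% passed, 2.56% higher and 1.37% lower in siMnt, and in 31.5% the groups did not overlap. Mnt was at 1316, 896 and 1596 in the siNTC libraries and at 613, 557 and 749 in the siMnt libraries, 50.4% of control (log2 fold change -0.96 ± 0.22, limma adjusted p = 0.0546; 0.00442 when the replicate number was added as a block, below "with the block"). On the first principal component siNTC replicate 3 lay at -0.81, between the siMnt libraries (29.4 to 35.5) and the other controls (-52.3 and -43.0), so some results are also given without it. Of 10 epithelial markers all were measured, with the keratins Krt8, Krt18 and Krt19 abundant and Esrp1 and Grhl2 low (6.0 to 53.3). The summed level of 8 macrophage or leukocyte markers was 2394 to 2964 in siNTC and 3734 to 3899 in siMnt, of 3 adipocyte markers 18.3 to 45.2 and 82.1 to 122.9, and of 8 mesenchymal or fibroblast markers 183652 to 318716 and 82484 to 127535. Of the macrophage or leukocyte markers 6 were tested, of which 3 passed higher in siMnt and 0 lower. Csf1r was at 757 to 1196 in siNTC and at 1857 to 2074 in siMnt, and Mpeg1 at 12.2 to 36.2 and 211 to 354. At low levels, Itgam was at 4.4 to 8.4 and 17.9 to 28.1, and Lyz2 at 1.9 to 3.5 and 4.9 to 11.9. The ranges of Cd14, Cd68 and Laptm5 overlapped, and the pan-leukocyte marker Ptprc was at 1.3 to 6.6 in all. Of the 8 mesenchymal or fibroblast markers 0 passed higher in siMnt and 2 lower. Fn1 was at 145991 to 269132 in siNTC and at 67382 to 105256 in siMnt. Vim was at 30051 to 51244.5 and 8983 to 16372.5, and Cdh2 at 7289 to 10888 and 5305 to 5476.5. Pdgfrb went the other way, with 109.8 to 146.7 and 189.9 to 317.9, as did Dcn (6.5 to 7.8 and 8.6 to 19.1). The ranges of Col1a1, Pdgfra and Acta2 overlapped. The epithelial sum was 121034 to 149561 in siNTC and 137587 to 148001 in siMnt. Of the 10 epithelial markers 2 passed higher in siMnt and 0 lower. Ehf was at 981 to 1985 in siNTC and at 2943 to 3546.5 in siMnt, and Muc1 at 717 to 2068 and 3523 to 4434. Esrp1 went the other way, with 12.2 to 26.5 and 6.0 to 11. The sum of 3 endothelial markers was 78.2 to 117.9 in siNTC and 62.7 to 74.8 in siMnt. Within it Cdh5 was at 63.3 to 96.1 and 32.2 to 47.8, and Vwf at 12.9 to 18.3 and 20.5 to 32.2. The part of these marker shifts in the results below was not tested.

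Of the 10 genes 1 rose when Mnt was lowered. Nqo1, the cytosolic quinone reductase that is often used as a readout of Nrf2 activity, reached 3.68 times its control level. Gclc, Gsr and Keap1 had higher means in siMnt, by log2 fold changes of 0.35 to 0.70, but did not pass. Nfe2l2, Txnrd1, Srxn1, Gclm and Hmox1 had means between 84.1% and 108.9% of control, and Slc7a11, at 65.6% of control, passed only when libraries were paired by replicate number. In all, 1 of 10 rose and 0 fell, and the median log2 fold change was 0.13, beside -0.01 over all tested genes. Since 3.93% of all tested genes passed, 1 in 10 is a small count, and nothing about the group as a whole is read from it. With the replicate number as a block 15.9% of all tested genes passed and 2 of the 10 did, Nqo1 higher and Slc7a11 lower. Without siNTC replicate 3, 16.0% of all tested genes passed and 3 of the 10 did, Nqo1, Gclc and Gsr, all higher in siMnt.

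**Figure D1:**
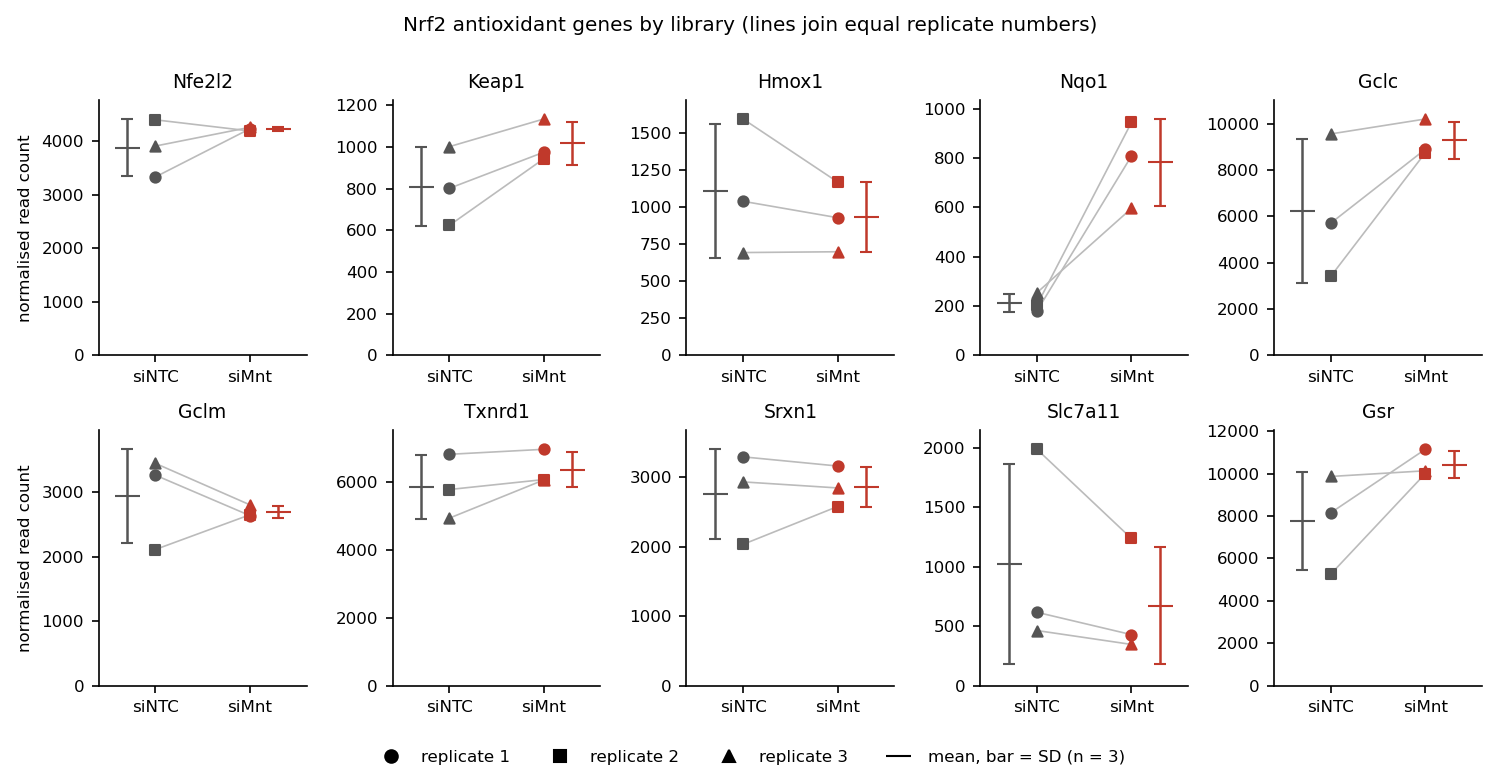
Normalised read counts (linear axis from 0) of the 10 genes in each of the 6 libraries, siNTC in grey and siMnt in red, with the replicate number as marker shape and the mean ± SD (n = 3) beside the points. The Nqo1 points of siMnt (596 to 944) lie far above those of siNTC (179.9 to 254), whereas in 8 of the other 9 genes the groups overlap, Gsr being the exception.

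Nqo1 uses NADPH or NADH to reduce quinones fully to hydroquinones, which keeps them from cycling with oxygen. Its siNTC libraries 1, 2 and 3 held 179.9, 204 and 254 normalised read counts and the siMnt libraries 808, 944 and 596. Every siMnt library was above every control, and the controls lay close together. The means were 213 ± 37.7 and 782 ± 175.5 (SD, n = 3), the log2 fold change was 1.86 ± 0.21 (95% interval 1.37 to 2.35) and the limma adjusted p was 0.0155. By p-value Nqo1 ranked 17th of the 12568 tested genes. By an exact two-sided permutation test of Nqo1 over the libraries p was 0.1, which is as small as 3 against 3 can give. Within replicate numbers 1, 2 and 3 the log2 difference was 2.16, 2.21 and 1.23, smallest in number 3, where the control was highest and the siMnt library lowest. As RNA came from whole cultures, more cells with Nqo1 and more Nqo1 RNA per cell cannot be told apart. The call was lost when siMnt replicate 1, siMnt replicate 2 or siNTC replicate 1 was left out (limma adjusted p = 0.104, 0.1 and 0.0806), where the log2 fold change was 1.83, 1.72 and 1.75 and no gene of the table passed by limma or edgeR. In those fits 1816, 1920 and 2193 genes had an unadjusted p under 0.05 by limma, and DESeq2 called 447, 554 and 710.

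All 9 other genes had 95% intervals of the log2 fold change that included 0, and in 8 of the 9 the interval lay wholly below that of Nqo1. The exception was Gclc, whose interval reached 1.44. These intervals rest on the same 6 libraries.

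**Figure D2:**
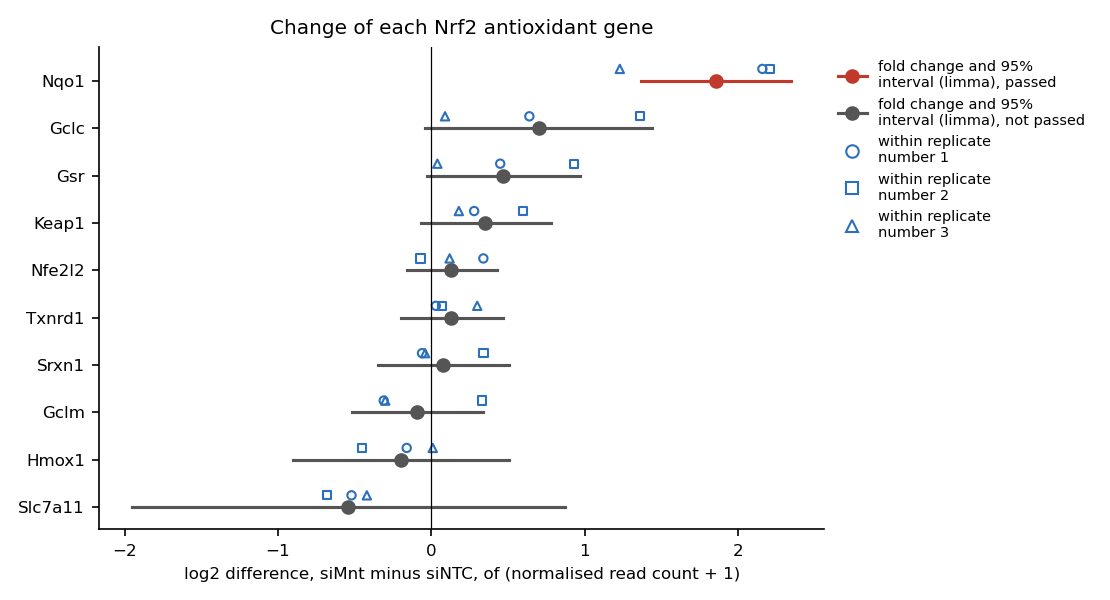
Log2 fold change (siMnt minus siNTC) of each gene with its 95% interval from limma, red where it passed and grey where it did not, and the log2 difference within each replicate number as open blue markers. Nqo1 stands at 1.86, every other interval includes 0, and the 3 differences of Slc7a11 lie close together (-0.68 to -0.42) inside its wide interval (-1.95 to 0.87).

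The promoter sequences below show where the letters of an antioxidant response element core occur next to the start sites of these genes, since all the target genes are commonly grouped by that element. RefSeq promoter windows (build GRCm38.p6, 250 bases before to 50 after a start) were held for 7 of the 10 genes, not for Hmox1, Gclc and Gsr. The core TGACNNNGC, searched on both strands, occurred in 4 of the 9 windows of these 7 genes and in 12.4% of all 32851 windows. No match overlapped the AP-1 core TGACTCA. The matched letters are in capitals, each line reads 5′ to 3′ along the gene, and positions count from the first transcribed base.
Nfe2l2, -240 to -232, chr2:75704886-75704912, minus strand: cagcccaccTGACTCCGCcatgccccg
Gclm, -134 to -126, chr3:122245414-122245440, plus strand: ctcccgggcGCACCGTCAactctcacg
Txnrd1 (1 of 3 starts), -92 to -84, chr10:82859105-82859131, plus strand: tggatttttGCTTTGTCAttctgacac
Srxn1, 29 to 37, chr2:152105543-152105569, plus strand: cagtgggcaGCTAGGTCAgagtgagac
In Gclm, Txnrd1 and Srxn1 the core reads on the opposite strand to the gene. Of the 4 genes with a match none passed, with log2 fold changes of -0.09 to 0.13. As only 3.93% of all tested genes passed, nothing about the element is read from this count, and its part in any change was not tested.

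The window of Nqo1, the gene that rose, held neither these letters nor the E-box CACGTG, the sequence that Mnt and Max bind, which occurred in 0 of the 9 windows and in 7.15% of all windows. Its 250 bases before the start are shown for that reason, and the absence says only that the letters are not in this stretch.
Nqo1, chr8:107403206-107403455, minus strand: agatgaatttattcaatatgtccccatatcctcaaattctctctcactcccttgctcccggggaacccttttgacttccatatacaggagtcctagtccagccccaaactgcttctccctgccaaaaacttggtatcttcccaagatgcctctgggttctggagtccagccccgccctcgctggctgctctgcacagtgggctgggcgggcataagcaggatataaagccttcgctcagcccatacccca

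Neither Nfe2l2 nor Keap1 passed. Nfe2l2 was at 3329, 4396 and 3906 in siNTC and at 4228, 4188 and 4256 in siMnt. The siMnt libraries were nearly equal and lay inside the control range (log2 fold change 0.13 ± 0.13, limma adjusted p = 0.57). Keap1, the sensor that holds Nrf2 for degradation, was at 802, 624 and 1002 in siNTC and at 975, 944 and 1135 in siMnt. It was higher in siMnt within each replicate number (log2 differences of 0.28, 0.60 and 0.18), but siNTC replicate 3 exceeded 2 of the siMnt libraries (log2 fold change 0.35 ± 0.19, limma adjusted p = 0.293; 0.089 with the block). Exons of Keap1 overlap those of a predicted gene on the opposite strand, and the counting is not stated to have used strand.

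Of 13 tested regulators and partners of Nrf2, 0 rose and 0 fell by limma, with the block as without it, and 0 had an unadjusted limma p under 0.05 (23.4% of all tested genes did) or passed by edgeR (3.54%) or DESeq2 (11.6%). With both the block and a correction for GC content and length 1 of the 13, Sqstm1, passed. The log2 fold changes of the list ran from -0.38 to 0.25, with a median of 0.00. Sqstm1, the autophagy receptor p62 that can displace Nrf2 from Keap1, was at 13177, 21469 and 12097 in siNTC and at 10852, 13432 and 10643 in siMnt (log2 fold change -0.38 ± 0.22, limma adjusted p = 0.345). Its highest value in each group was in replicate 2. The related factor Nfe2l1 was at 9055 ± 1217 and 8030 ± 1021 (limma adjusted p = 0.516). The repressor Bach1, which occupies the same elements (3128 ± 575 and 3248 ± 355), and the ligase scaffold Cul3 (4871 ± 602 and 4093 ± 146) did not pass either; these and other list members below that are given without replicate values were named after their values were seen.

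The first and limiting step of glutathione synthesis is carried out by glutamate-cysteine ligase, which joins a catalytic subunit (Gclc) and a modifier subunit (Gclm) that makes it more efficient. Gclc was at 5713, 3417 and 9567 in siNTC and at 8903, 8755 and 10212 in siMnt. The siMnt libraries were alike, while the controls spread widely, with siNTC replicate 3 inside the siMnt range (log2 fold change 0.70 ± 0.32, limma adjusted p = 0.239; 0.0505 with the block). Leaving out siNTC replicate 3 gave a log2 fold change of 1.07 and a limma adjusted p of 0.0143, and leaving out siNTC replicate 2, the lowest control, gave 0.33 and 0.385. Gclm was at 3261, 2109 and 3444 in siNTC and at 2635, 2647 and 2802 in siMnt. The siMnt libraries lay between the controls (log2 fold change -0.09 ± 0.19, limma adjusted p = 0.81), and exons of Gclm overlap a predicted gene on each strand. The ratio of Gclc to Gclm counts, which is not corrected for length, was 1.75, 1.62 and 2.78 in siNTC and 3.38, 3.31 and 3.64 in siMnt. This ratio was higher in every siMnt library than in every control, and as it was chosen after the values were seen it is given with no test.

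Gsr, the reductase that returns oxidised glutathione to its reduced form with NADPH, was at 8160, 5265 and 9872 in siNTC and at 11154, 10009 and 10140 in siMnt. The groups did not overlap, as in 31.5% of all tested genes, by a narrow margin between siNTC replicate 3 and siMnt replicate 2. The log2 fold change was 0.47 ± 0.22 (limma adjusted p = 0.239; 0.0805 with the block). It was 0.67 without siNTC replicate 3 (limma adjusted p = 0.0486) and 0.22 without siNTC replicate 2 (0.311). Across the 6 libraries Gclc, Gsr and Keap1 varied together, with Pearson correlations of log2 values of 0.96 for Gclc and Gsr, 0.98 for Gclc and Keap1 and 0.93 for Gsr and Keap1. All 3 were lowest in siNTC replicate 2, and these correlations include the difference between groups and share the same libraries.

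Of 25 tested genes for glutathione synthesis, transfer and cystine supply 1 rose, 0 fell and 24 did not pass. Gss, the synthetase of the second step, rose from 1100, 1228 and 1536 to 2503, 2470 and 2072. All siMnt libraries were above all controls (log2 fold change 0.88 ± 0.15, limma adjusted p = 0.0304), but the call held in 1 of 6 fits that left out a library, the one without siNTC replicate 3 (limma adjusted p = 0.00346; 0.0542 to 0.168 in the others), and was lost without the variance trend (0.0514). The list median was 0.24. Under the block the counts were 8 higher and 3 lower of the 25, beside 15.9% of all tested genes that passed in either direction. In 10 of the 25 the groups did not overlap, as in 31.5% of all tested genes. Those that rose with the block included the glutathione transferases Gsta4 (1061 ± 385 and 1971 ± 83.5; limma adjusted p = 0.0573, and 0.0127 with the block), Gstm1 (2497 ± 1067 and 4146 ± 441; 0.132 and 0.0164) and Gsto1 (9145 ± 1550 and 13064 ± 1640; 0.104 and 0.0186). Some genes of the Gsta and Gstm families are alike in sequence, so reads may be split among such genes, which was not tested. Among the genes that fell with the block was the peroxidase Gpx1 (3606 ± 966 and 1961 ± 221; limma adjusted p = 0.0527, and 0.0139 with the block).

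Neither Nrf2 target of the thioredoxin arm passed. Txnrd1, the cytosolic thioredoxin reductase, was at 6825, 5786 and 4940 in siNTC and at 6973, 6080 and 6068 in siMnt (log2 fold change 0.13 ± 0.15, limma adjusted p = 0.625). Srxn1, sulfiredoxin, which rescues over-oxidised peroxiredoxins, was at 3297, 2036 and 2936 in siNTC and at 3165, 2581 and 2849 in siMnt (log2 fold change 0.08 ± 0.19, limma adjusted p = 0.842). In both genes the siMnt values lay within or just above the control range. The 95% intervals, -0.20 to 0.47 for Txnrd1 and -0.35 to 0.51 for Srxn1, leave room for small changes in either direction.

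Of 14 tested genes of the thioredoxin and peroxiredoxin system 1 rose, 0 fell and 13 did not pass, and the list median was -0.03. Txnrd3, a reductase with an added glutaredoxin domain, rose from 908, 864 and 1204 to 1586, 1552 and 2108 (log2 fold change 0.82 ± 0.18, limma adjusted p = 0.048). It was higher by 0.80, 0.84 and 0.81 within replicate numbers 1, 2 and 3, so the difference hardly varied although the levels did, and the call held without siNTC replicate 3 only of the 6 libraries. The call was also lost with quantile normalisation (limma adjusted p = 0.0502), with a higher filter on low values (0.0535) and without the variance trend (0.078). Prdx1, the most expressed peroxiredoxin by read count, was at 24171 ± 2571 and 23481 ± 161 (limma adjusted p = 0.903). Txnip, which binds and inhibits thioredoxin, was at 4154, 17220 and 6220 in siNTC and at 14964, 39680 and 14980 in siMnt, highest in replicate 2 of each group (log2 fold change 1.44 ± 0.55, limma adjusted p = 0.169; 0.00268 with the block).

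Slc7a11 is the light chain of the cystine-glutamate exchanger xCT, which brings in the cysteine that glutathione needs. It was at 618, 1990 and 464 in siNTC and at 429, 1239 and 347 in siMnt. Replicate 2 was far above the other libraries in both groups, and within replicate numbers 1, 2 and 3 siMnt was lower by 0.52, 0.68 and 0.42 on the log2 scale. Unpaired, the log2 fold change was -0.54 ± 0.61 (95% interval -1.95 to 0.87, limma adjusted p = 0.637); with the block Slc7a11 fell (limma adjusted p = 0.0219). When siNTC replicate 2 alone was left out, so that the high siMnt replicate 2 lost its partner, the unpaired log2 fold change was 0.09. Its heavy chain Slc3a2 was likewise highest in replicate 2 of each group, with 8231, 16301 and 7971 in siNTC and 6885, 11034 and 6959 in siMnt (limma adjusted p = 0.538; 0.0865 with the block).

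Slc7a11 is also a target of Atf4, the transcription factor of the amino acid and endoplasmic reticulum stress response, which binds composite sites with C/EBP factors. Its RefSeq window held 2 copies of the sequence TTGCATCA, a C/EBP and Atf4 site, facing opposite ways, shown here because this gene moved with the replicate number; 0.895% of all windows held a copy. The capitals mark both copies.
Slc7a11, -78 to -28, chr3:50443641-50443691, minus strand: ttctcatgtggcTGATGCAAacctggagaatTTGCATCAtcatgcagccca
Of 11 tested genes of the Atf4 list 9 were highest in replicate 2 of both groups, whereas 2894 of the 12568 tested genes (23.0%) and 2 of the 10 Nrf2 genes, Slc7a11 and Hmox1, were. Atf4 itself was at 11654, 26360 and 11165 in siNTC and at 9959, 15858 and 9317 in siMnt (log2 fold change -0.41 ± 0.35, limma adjusted p = 0.518; 0.0752 with the block). Asparagine synthetase, Asns, was at 4622, 10252 and 3961 in siNTC and at 3044, 5157 and 2844 in siMnt (limma adjusted p = 0.299; 0.0113 with the block). Chac1, which degrades glutathione, was at 1425, 5677 and 876 in siNTC and at 859, 4617 and 540.4 in siMnt (limma adjusted p = 0.739; 0.0186 with the block). By limma 1 of the 11 rose, the lipoprotein receptor Vldlr (1023 ± 65.5 and 1755 ± 314, limma adjusted p = 0.0406), and 0 fell. The call of Vldlr held without siNTC replicate 3 (limma adjusted p = 0.0188), but not without any other library (0.0505 to 0.192) or without the variance trend (0.0656). Under the block, where 15.9% of all tested genes passed, Vldlr was again the 1 that rose, and Atf3, Asns and Trib3 were the 3 that fell. The serine synthesis enzyme Phgdh was at 11303 ± 2718 and 10000 ± 1087 (limma adjusted p = 0.652). What the replicate numbers share is not given in the labels. Any part of Atf4 or of these sites in the values of Slc7a11 was not tested.

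**Figure D3:**
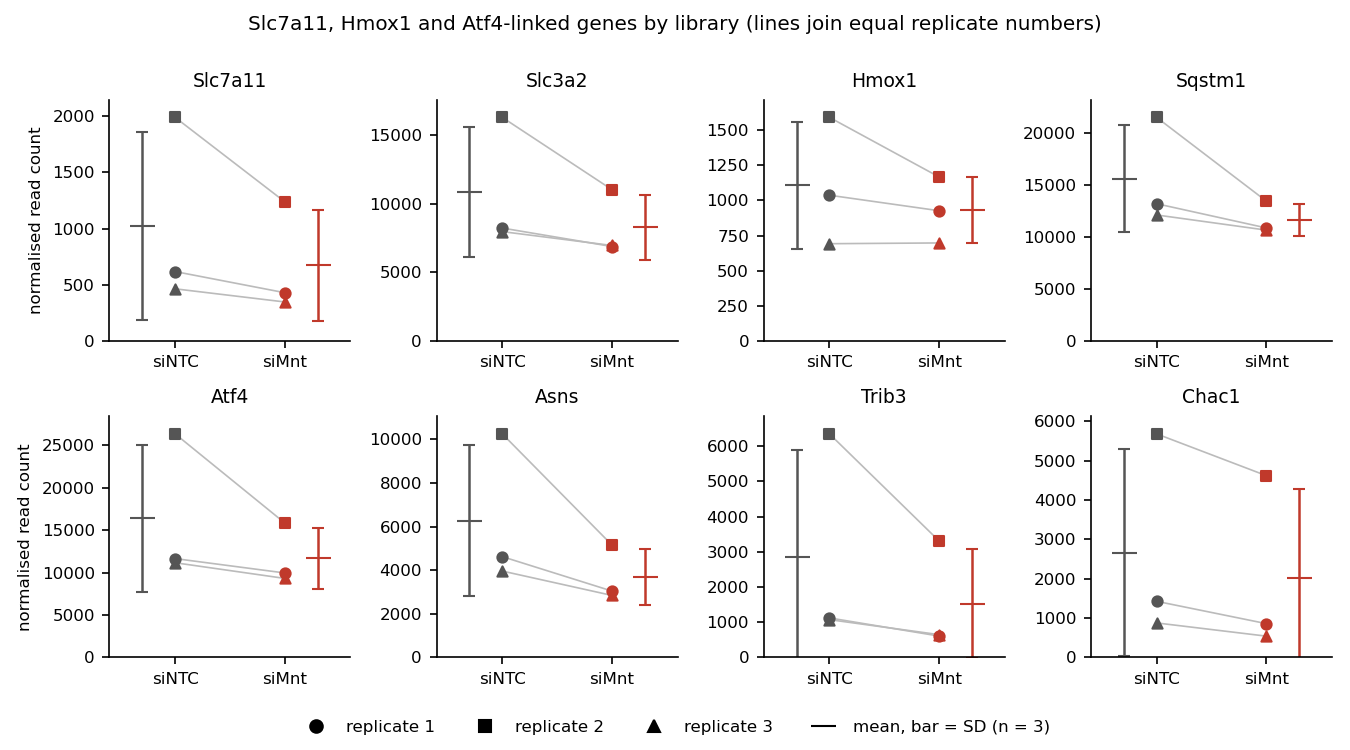
Normalised read counts (linear axis from 0; SD bars that would reach below 0 are cut) of Slc7a11, its partner chain Slc3a2, Hmox1, Sqstm1, Atf4 and 3 Atf4-linked genes in the 6 libraries, with grey lines joining equal replicate numbers and the mean ± SD (n = 3) at the sides. Replicate 2 is the highest library of its group in all 8 genes, for Slc7a11 1990 in siNTC and 1239 in siMnt. Of the 11 tested genes of the Atf4 list 9 had this pattern. The list genes without it, Vldlr and Cebpb, are not shown.

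Hmox1, heme oxygenase 1, opens the heme ring to biliverdin, iron and carbon monoxide, and is repressed by Bach1 as well as induced by Nrf2. It was at 1037, 1591 and 692 in siNTC and at 927, 1167 and 697 in siMnt. The siMnt libraries lay within the control range, and the order of the replicate numbers, with number 2 highest and number 3 lowest, was the same in both. The log2 fold change was -0.20 ± 0.31 (limma adjusted p = 0.742; 0.304 with the block), and without siNTC replicate 2 it was 0.10. Its log2 values had a Pearson correlation of 0.93 with those of Slc7a11 over the 6 libraries.

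Of 12 tested genes of heme and iron handling 1 rose, 0 fell and 11 did not pass, with a median of 0.25. Blvrb, biliverdin reductase B, which also reduces flavins, rose from 404, 465 and 467 to 889.9, 1163 and 1022. No siMnt library came near a control (log2 fold change 1.19 ± 0.15, limma adjusted p = 0.0155), and the call held in 3 of the 6 fits that left out a library. The fits that lost it left out siMnt replicate 1, siMnt replicate 2 or siNTC replicate 1 (limma adjusted p = 0.0837, 0.102 and 0.0822), as for Nqo1. The ferritin chains were at 15159 ± 599.9 and 19835 ± 2280 for Fth1 (limma adjusted p = 0.134) and at 64984 ± 14913 and 78521 ± 19503 for Ftl1 (0.547), and both have retrocopies with which reads may be shared. With the block, where 15.9% of all tested genes passed, 2 of the 12 rose and 1 fell. Those that rose were Blvrb and Hpx (915.4 ± 764.7 and 1970 ± 194.2; limma adjusted p = 0.137, and 0.0204 with the block). The iron exporter Slc40a1, with 3955 ± 529.9 and 2776 ± 136, fell (limma adjusted p = 0.0702, and 0.0204 with the block). DESeq2, which called 11.6% of all tested genes, called 3 of the 12. Without siNTC replicate 3, where 16.0% of all passed, 2 rose and 0 fell.

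Among 14 tested genes that detoxify quinones and carbonyls, the functional neighbours of Nqo1, 1 rose, 0 fell and 13 did not pass, with a median of 0.08. Aldh3a1, an aldehyde dehydrogenase, rose from 93.5, 94.2 and 193 to 558, 734 and 505. The groups were far apart (log2 fold change 2.30 ± 0.30, limma adjusted p = 0.0167), and as for Nqo1 the difference was smallest within replicate number 3 (2.56, 2.95 and 1.38). Leaving out siMnt replicate 1, siMnt replicate 2 or siNTC replicate 1 ended its call too (limma adjusted p = 0.112, 0.105 and 0.0839). The paralogue Nqo2 was at 919.9 ± 80.8 and 1104 ± 120.3 (log2 fold change 0.26 ± 0.14, limma adjusted p = 0.287). Ugdh and Akr1a1, the listed genes with the highest means, were at 10010 ± 1209 and 12082 ± 735 (limma adjusted p = 0.255) and at 10776 ± 1201 and 9944 ± 233 (0.632). With the block, where 15.9% of all tested genes passed, 1 of the 14 rose and 2 fell. Those that fell were Akr1c13 (2310 ± 304.9 and 1537 ± 171.3; limma adjusted p = 0.0621, and 0.014 with the block) and Cyp1b1 (2492 ± 749.5 and 1252 ± 258.4; 0.0716 and 0.00408). DESeq2, which called 11.6% of all tested genes, called 3 of the 14. Without siNTC replicate 3, where 16.0% of all passed, 3 rose and 2 fell.

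**Figure D4:**
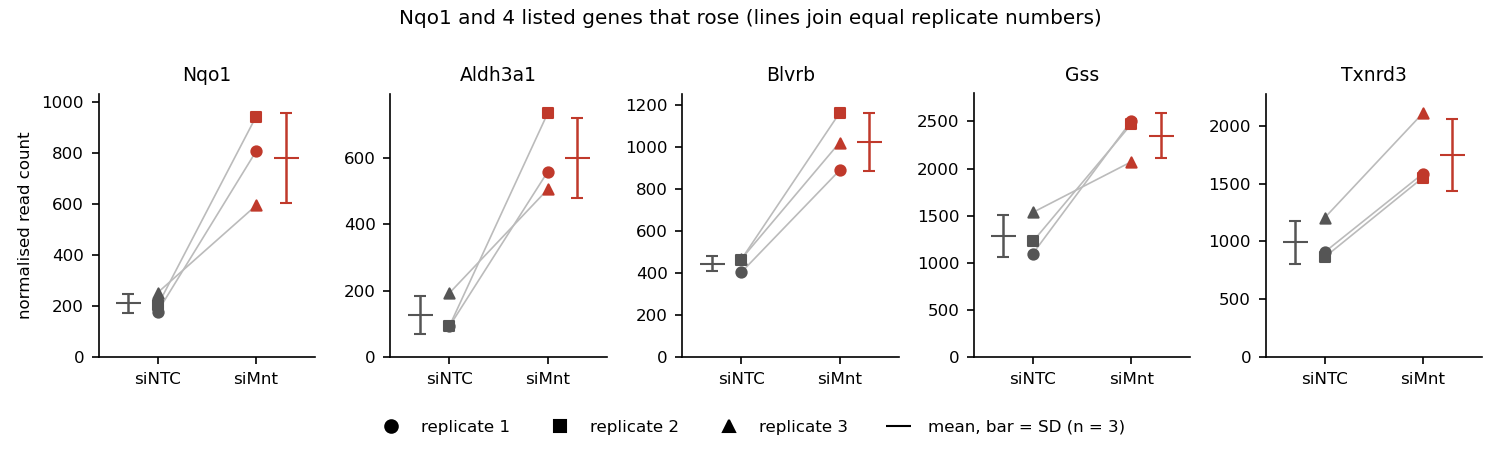
Normalised read counts (linear axis from 0) of Nqo1 and of Aldh3a1, Blvrb, Gss and Txnrd3 in the 6 libraries, grey lines joining equal replicate numbers, with mean ± SD (n = 3) at the sides. In each gene all siMnt libraries lie above all siNTC libraries; within replicate number 3 the log2 difference is 1.23 for Nqo1, 1.38 for Aldh3a1, 1.13 for Blvrb, 0.43 for Gss and 0.81 for Txnrd3.

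NADPH powers Nqo1, Gsr and Txnrd1. Of 9 tested genes of its supply and of the pentose phosphate route 0 rose and 0 fell by limma, with a median of 0.10. Of the 9, 3 had an unadjusted limma p under 0.05, as did 23.4% of all tested genes. By edgeR 0 were called, and DESeq2, which called 11.6% of all, called 1. Transketolase, Tkt, was at 7571, 7477 and 9285 in siNTC and at 10821, 11027 and 11818 in siMnt (log2 fold change 0.47 ± 0.13, limma adjusted p = 0.078; 0.0253 with the block; 0.0169 without siNTC replicate 3). Malic enzyme, Me1, was at 7759, 5620 and 9043 in siNTC and at 11696, 10003 and 10781 in siMnt (limma adjusted p = 0.118; 0.0264 with the block; 0.0255 without siNTC replicate 3). With the block, where 15.9% of all tested genes passed, 3 of the 9 rose, Tkt, Me1 and isocitrate dehydrogenase Idh1. G6pdx, the entry enzyme of the pentose phosphate route, was at 2643 ± 154 and 2275 ± 135 (limma adjusted p = 0.277). Of 4 tested superoxide dismutase and catalase genes 0 passed by limma (0 by edgeR, 2 by DESeq2, and 2 with an unadjusted p under 0.05, beside 3.54%, 11.6% and 23.4% of all tested genes), with Sod1 at 5249 ± 670.1 and 5846 ± 288 (limma adjusted p = 0.477) and Cat at 4672 ± 446 and 5511 ± 358 (0.266); with the block Sod3 rose (0.0198). Over the 8 lists together, 5 of 101 tested genes rose and 0 fell, beside the 3.93% of all tested genes that passed.

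**Figure D5:**
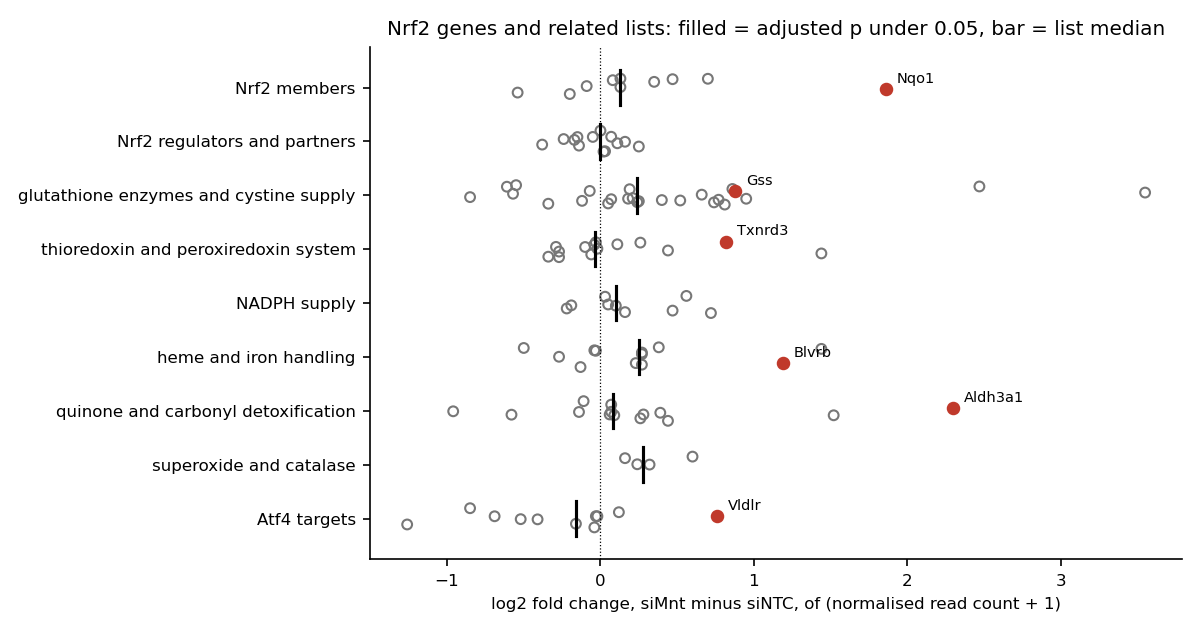
Log2 fold change (siMnt minus siNTC) of every tested gene of the 10 Nrf2 genes and of 8 related lists, 1 row a list, filled red where the adjusted p was under 0.05 and open grey otherwise, with the list median as a black bar. Medians lie between -0.16 (Atf4 targets) and 0.28 (superoxide and catalase), and each of the 6 red points is on the right.

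For levels between genes, counts were divided by the length of the longest GENCODE M21 transcript of each symbol. In siNTC the order was Gsr (2905 ± 871 per kilobase, mean ± SD, n = 3), Gclc (1821 ± 908), Txnrd1 (1615 ± 261), Nfe2l2 (1567 ± 216), Srxn1 (980.2 ± 231), Hmox1 (705 ± 289), Gclm (526 ± 129.5), Keap1 (224 ± 52.4), Nqo1 (137 ± 24.3) and Slc7a11 (111 ± 91.1). Neighbours in this order had overlapping control libraries except Nfe2l2 and Srxn1, Gclm and Keap1, and Keap1 and Nqo1. Nqo1 was thus among the least expressed of the 10 in control cells, and in siMnt it was at 504 ± 113 per kilobase, beside 482 ± 16.7 for Gclm.

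No other of the 10 genes followed the pattern of Nqo1 closely: its Pearson correlations of log2 values with them over the 6 libraries ran from -0.22 (Slc7a11) to 0.68 (Gsr). Among 11201 other genes with a mean of at least 50, the one most like Nqo1 was Acpp, a prostatic-type acid phosphatase, with a correlation of 0.998. Acpp rose from 114 ± 7.45 to 217 ± 28.6 (log2 fold change 0.92 ± 0.18, limma adjusted p = 0.0392), a call that held without siNTC replicate 3 (0.0174) but not without any other library (0.063 to 0.194). Of these 11201 genes 254 had a correlation above 0.95 with Nqo1. Such correlations rest on 6 libraries and include the difference between groups.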

How the data were processed

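RNA sequencing of 6 libraries was analysed, 3 siNTC and 3 siMnt, grouped by their titles. TopHat2 2.1.0, DESeq2 and build mm9 are named in the submitters' processing notes. The counter, annotation, strand setting and gene filter were not given in the sources used here. The deposited table holds a normalised signal per gene. Division by what 1 read was worth per library gave whole reads for 99.75% of values above 0, within 0.05 read, so each value is a read count over 1 size factor. Genes with a mean of at least 10 were tested on log2(value + 1) with limma 3.58.1 (R 4.3.3, trended variance), since the values are not raw counts. Same-numbered libraries deviated together (correlations of deviations from the group means 0.28, 0.50 and 0.35 for numbers 1, 2 and 3, from the titles' numbers). For this reason values with the replicate number as a block are also given for some of the genes and lists. edgeR 4.0.16 and DESeq2 1.42.0 were run on recovered reads. The 10 genes and the lists were chosen with earlier results of these data known. Named genes are Mnt, the 10 genes, per list up to 3 that passed (smallest adjusted p) and the 2 with the highest mean that did not, and the gene most like each member that passed; others were named after their values were seen. Scripts were tested on simulated data. Other alternatives are pseudocounts of 0.5 and 5, other filters, quantile and TMM scaling, no variance trend, each library left out, a threshold of 0.1, and a loess correction for GC content and transcript length (GENCODE M21), chosen after seeing the data. Bach2, Gstt1, Ptgr1 and Aldh1l2 had means under 10 and were not tested; Nfe2, Nfe2l3, Gpx2 and Gpx7 were not analysed here.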

Additional observations from a re-analysis of the deposited data

How the results depend on the processing

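Nqo1 passed in every setting that kept all 6 libraries (1 of 10 genes), with 2 of 10 under the replicate block, alone or with the GC and length correction, where Slc7a11 was the second. Leaving out 1 library gave 0 to 3 of 10. Leaving out 1 library moved the log2 fold change from -0.50 to 0.10 for Hmox1, -0.32 to 0.04 for Gclm, -0.12 to 0.22 for Srxn1, -1.10 to 0.09 for Slc7a11, -0.11 to 0.04 for Prdx1 and -0.29 to 0.03 for Phgdh, none of which passed unpaired; Prdx1 was at 0.03 with quantile normalisation. Over all tested genes 494 passed, against 322 with a mean of at least 50, 306 without the trend, 1998 with the replicate block (1173 higher, 825 lower), 1457 with DESeq2, 1336 at a threshold of 0.1, 1009 with the GC and length correction (512 higher, 497 lower) and 2472 with both correction and block (1152 higher, 1320 lower); leaving out 1 library gave 0 to 2012. Of the 101 listed genes 5 passed, against 2 without the trend, 27 with the block, 18 with DESeq2, 15 at a threshold of 0.1, 11 with the correction and 32 with both; leaving out 1 library gave 0 to 23. The cause of these shifts was not tested, apart from the fewer genes, fewer samples or looser threshold that some settings impose. The higher share of called genes was 65.2%, or 50.7% with the correction and 46.6% with correction and block. Each of the 10 genes had at least 184 recovered reads in every library.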

Other observations

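Nqo1 and Aldh3a1 also belong to the gene battery of the aryl hydrocarbon receptor Ahr, so further genes of that battery, chosen after the values were seen, are given as a description. Ahr was at 4481, 3014 and 3782 normalised read counts in siNTC and at 4404, 4156 and 3686 in siMnt, and its partner Arnt at 2315, 2308 and 2798 and at 2849, 2602 and 2764. Neither passed (limma adjusted p = 0.663 and 0.488). The glucuronosyltransferase Ugt1a6a was at 579.9, 408 and 913 in siNTC and at 1370.0, 1332 and 1504 in siMnt (limma adjusted p = 0.047), a call that held without siNTC replicate 3 (0.00168) but not without any other library (0.059 to 0.19) or without the variance trend (0.0779). Ugt1a6b, which shares exons with it, was at 882, 1009 and 1713 and at 1762, 2030.0 and 1909 (limma adjusted p = 0.117; 0.0257 with the block), and the glutathione transferase Gsta1 at 86.5, 69.8 and 25.8 and at 97.3, 103.8 and 78.4 (0.319). Cyp1b1 was at 2750.0, 3079 and 1648 in siNTC and at 1221, 1525 and 1011 in siMnt (limma adjusted p = 0.0716; 0.00408 with replicate numbers blocked). The feedback inhibitor Tiparp was at 3492, 5995 and 1994 in siNTC and at 1920.0, 2025 and 1626 in siMnt (limma adjusted p = 0.165; 0.0215 with the block). By their means Nqo1, Aldh3a1, Ugt1a6a, Ugt1a6b and Gsta1 were higher and Cyp1b1 and Tiparp lower in siMnt.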
